A study of Mus musculus with 16 samples.

Results

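The genes described here are the molecular chaperones whose symbols begin with Hsp, Dnaj or Cct, taken from the deposited expression table of mouse 8-cell embryos by their symbols alone. They comprised 88 of the 43437 genes in the table, and 8 of the 88 are annotated pseudogenes. By family there were 10 CCT genes, 4 DNAJA, 13 DNAJB and 27 DNAJC genes, 15 genes of the HSP70 and HSP110 type, 3 HSP90 genes, 7 genes of the mitochondrial chaperonin (5 of them pseudogenes) and 9 small HSP genes. Dnajc19 stood in the table under 2 identifiers, ENSMUSG00000027679 and ENSMUSG00000103988, and both count among the 88 and among the tested genes below.

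Chaperones bind proteins that are unfolded, newly made or part of an unfinished complex, and help them reach or keep their folded form. HSP70 proteins do this in cycles of ATP hydrolysis that J-domain proteins (the DNAJ families) start and nucleotide exchange factors such as the HSP110 proteins end. HSP90 acts later, on kinases, receptors and complexes that are nearly folded, while the ring-shaped CCT complex folds actin and tubulin in the cytosol. Parallel sets of these proteins work in the endoplasmic reticulum (ER), where secreted and membrane proteins fold, and in mitochondria. In the mouse embryo, members of the HSP70 family are among the first genes transcribed after fertilization.

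Zygotes had been injected with double-stranded RNA (dsRNA) against Tfap2c, against Tead4, against both (double knockdown) or against GFP, a jellyfish gene that mouse embryos lack and so the control. Tfap2c and Tead4 encode transcription factors of the trophectoderm lineage, and the study concerns the timing of the first lineage choice. Embryos were cultured in KSOM medium to the 8-cell stage and freed of the zona pellucida, and each library was made from the polyadenylated RNA of 10 pooled embryos. There were 4 libraries per group, 2 from each of 2 crosses (A1, A2 and then B1, B2), and values for single libraries are given in that order throughout.

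All embryos were F1 hybrids with a hybrid mother, C57BL/6J × CBA/J in libraries A1 and A2 (cross A) and C57BL/6J × DBA/2J in libraries B1 and B2 (cross B). The fathers' strain is written differently from library to library, with a number that runs on, and was not used. Each group held 2 libraries of each cross, and the labels do not say whether crosses were collected on separate days, so a cross may also stand for a batch. They also do not say that the pools came from separate cultures, and p-values measure the spread between pools. As the RNA is bulk, fewer cells and less RNA per cell cannot be told apart.

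Expression is given as FPKM, fragments scaled to transcript length and library size, which allows levels of different genes to be compared. The FPKM of a library summed to between 799260 and 874436 over all genes, from 10049 to 10504 genes reached 1 FPKM, and relative depth, estimated from the spacing of low values, lay between about 0.869 and 1.13 of the mean. Tfap2c averaged 15.8 ± 1.65 FPKM in Tfap2c knockdown, 34.8 ± 1.67 in Tead4 knockdown and 16.2 ± 0.342 in double knockdown, against 35.7 ± 6.60 in GFP control (SD, n = 4 each). Tead4 averaged 28.3 ± 7.77, 7.66 ± 2.49 and 9.49 ± 3.94 FPKM in Tfap2c, Tead4 and double knockdown, against 48.6 ± 7.00 in GFP control. All 7 markers of the 8-cell embryo were present, with a summed level of 9755 to 11133 FPKM in Tfap2c knockdown, 11332 to 13404 in Tead4 knockdown and 9894 to 12869 in double knockdown, against 13130 to 15610 in GFP control. Dppa3, at 5509 to 8679 FPKM over all libraries, and Dppa5a, at 3686 to 6731, made up nearly all of each sum. The 7 also include Tfap2c and Tead4, the dsRNA targets. Cumulus markers summed to at most 6.92 FPKM and sperm markers to at most 1.63. Of 5 blood markers the alpha globins Hba-a1 and Hba-a2 were above 0, with a sum of 29.1 to 63.0 FPKM in Tfap2c knockdown, 20.3 to 50.8 in Tead4 knockdown and 40.7 to 77.7 in double knockdown, against 9.86 to 26.8 in GFP control, while Hbb-bs, Hbb-bt and Ptprc were at 0 in all 16 libraries. Oocyte markers summed to 18.7 to 28.1, 14.5 to 54.0 and 20.0 to 34.9 FPKM in Tfap2c, Tead4 and double knockdown, against 13.9 to 25.8 in GFP control. The part of any of these in the results below was not tested.

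The 8-cell embryo carried chaperone mRNAs over a wide range of levels. In GFP control, 41 of the 88 genes averaged over 10 FPKM and 21 over 100 FPKM. Hspa8, which encodes the constitutive cytosolic HSP70 (HSC70), was the highest at 3933 ± 716 FPKM. The cytosolic HSP90 genes Hsp90aa1 at 3270.3 ± 563 and Hsp90ab1 at 1285 ± 44 followed, and then Dnaja1, which encodes a J-domain partner of HSP70, at 1278 ± 72.1 (SD, n = 4 each). The ER genes stood lower, with Hspa5, the ER HSP70 known as BiP, at 86.8 ± 17 FPKM and Hsp90b1, the ER HSP90, at 13.7 ± 3.21 FPKM. Dnajb9, a J protein of BiP also called ERdj4, was the exception at 490.0 ± 49 FPKM. The 88 genes together took 1.64% ± 0.0214 of all FPKM in Tfap2c knockdown, 1.89% ± 0.272 in Tead4 knockdown and 1.65% ± 0.117 in double knockdown, against 1.91% ± 0.179 in GFP control.

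A gene was tested where 4 or more libraries had 1 FPKM or more, which held for 60 of the 88 genes and for 11422 genes in all. The other 28 were low: 23 stayed under 1 FPKM in every library, among them 4 listed at 0 throughout (Dnajb8, Hspb3 and the pseudogenes Hspe1-ps4 and Hspe1-ps6). The small HSP genes Hspb2, Hspb3, Hspb6, Hspb7, Hspb8 and Hspb9 were all among these 23. Just inside the limit, the fourth highest library had 1.02 FPKM for Dnajc27, 1.03 for Dnajb3 and 1.12 for Hspa1a. Just outside it, the value was 0.857 for Dnajc16, 0.837 for Dnajb13 and 0.743 for Dnajc28.

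All tests below used limma on log2(FPKM + 1), and a gene was called at an adjusted p under 0.05, with the Benjamini-Hochberg adjustment over all 11422 genes. A log2 change is a difference on that scale, knockdown minus control unless said otherwise, and it understates the change of genes near 1 FPKM. In Tfap2c knockdown against GFP control, 15 of the 60 tested chaperone genes were higher and 11 lower, 43.3% in all, where 29.6% of all tested genes were called (16.3% higher and 13.2% lower). In Tead4 knockdown against GFP control, 5 were higher and 1 lower, 10% in all, beside 6.13% of all genes (3.35% higher and 2.78% lower). In double knockdown against GFP control, 11 were higher and 8 lower, 31.7% in all, beside 25.1% of all genes (13.9% higher and 11.3% lower). These 3 comparisons share the 4 control libraries. Among the genes called higher were Hspa1a, in Tfap2c and double knockdown, and Dnajc27, in Tfap2c knockdown. Both reached 1 FPKM in 4 libraries, all given Tfap2c dsRNA, so they were tested only because of the groups in which they were high. The median log2 change of the 60 genes was -0.07 in Tfap2c knockdown, 0.03 in Tead4 knockdown and -0.06 in double knockdown, beside 0.06, 0.05 and 0.05 for all tested genes.

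The balance of higher and lower calls depended on scaling: with libraries rescaled by the median of their gene ratios, 8 chaperone genes were higher and 17 lower in Tfap2c knockdown, and 9 were higher and 10 lower in double knockdown. Without cross in the fit, 16, 2 and 11 genes were called in the Tfap2c, Tead4 and double knockdown comparisons. Leaving out 1 library also moved the counts: 15 genes were called in Tfap2c knockdown without its library B2 and 17 without GFP control A2. In Tead4 knockdown, 2 were called without its library B1 or without GFP control A1 or A2, and 3 without GFP control B2. In double knockdown, 12 were called without GFP control A1. A call held in 9 of 26, 1 of 6 and 9 of 19 genes in the Tfap2c, Tead4 and double knockdown comparisons under each left-out library and each other setting that kept both crosses. The plot of the changes by family shows that families did not move as blocks, with calls in both directions among the CCT, DNAJB, DNAJC and HSP70 genes after Tfap2c knockdown (for CCT, under neither rescaling).

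**Figure D1:**
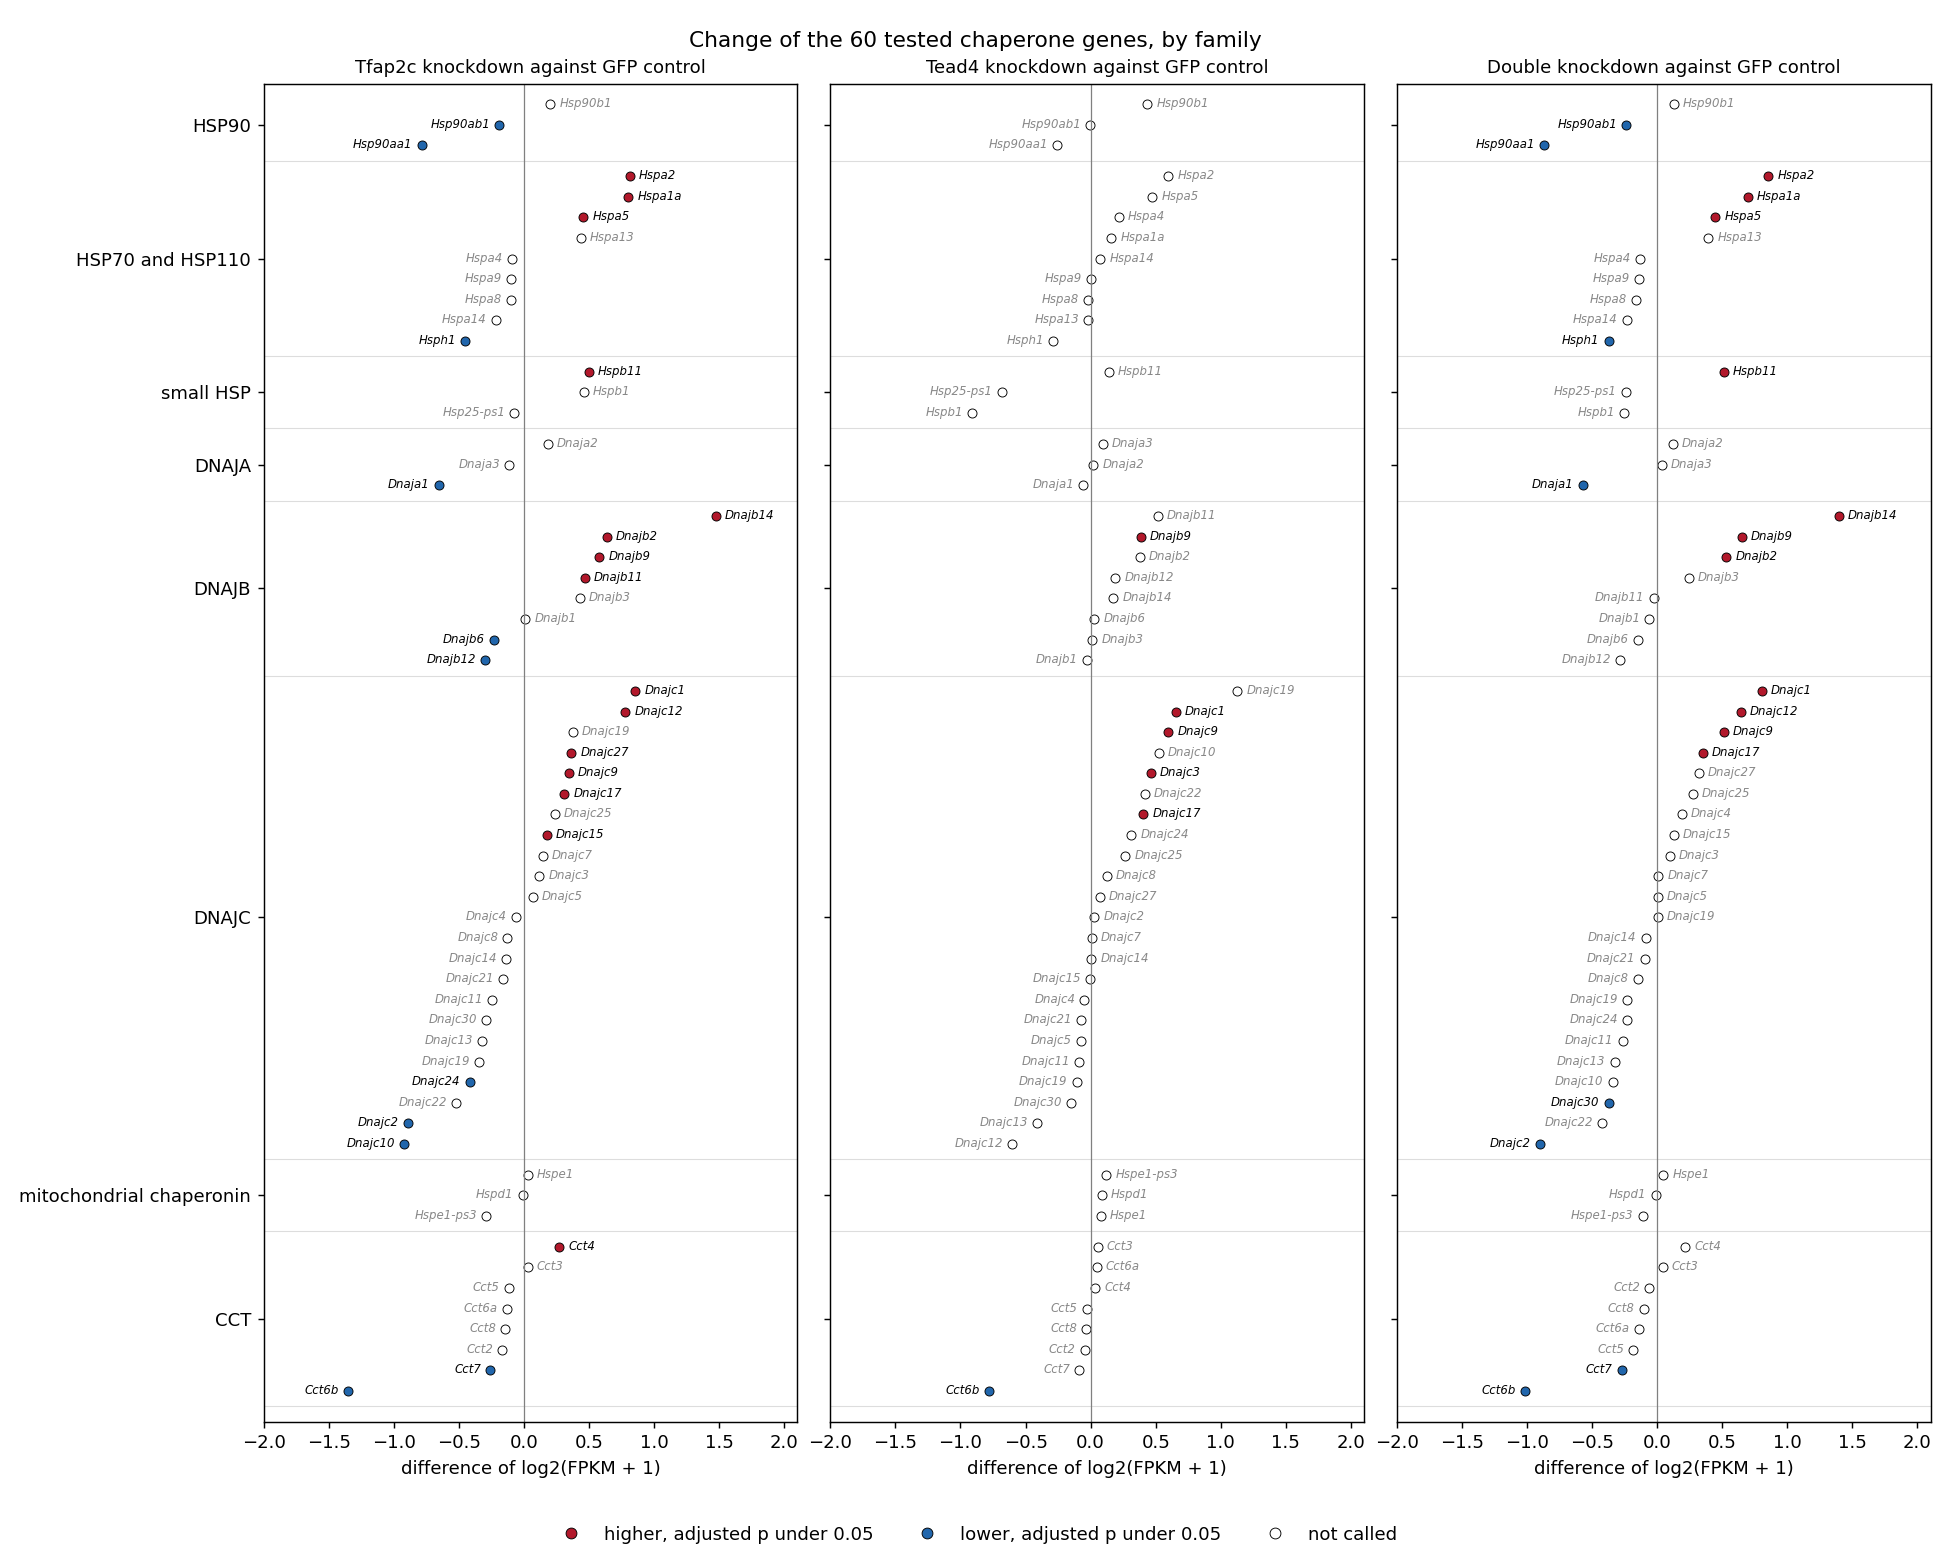
Change of the 60 tested chaperone genes in each knockdown against GFP control (difference of log2(FPKM + 1), horizontal axis), 1 point per gene and 1 row block per family. Red points were higher and blue points lower at an adjusted p under 0.05, white points were not called, and the spread runs from -1.36 to 1.48 in Tfap2c knockdown and from -1.02 to 1.40 in double knockdown.

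The cytosolic HSP90 mRNAs fell after Tfap2c knockdown, with or without Tead4 dsRNA, and so did that of Dnaja1, the J protein that brings clients to HSP70. Hsp90aa1, the more stress-responsive of the HSP90 pair, had 2142, 1929, 1649 and 1812 FPKM in Tfap2c knockdown and 2229, 2048, 3295 and 3589 in Tead4 knockdown. Hsp90aa1 had 1650.3, 1752, 1558 and 2190.5 FPKM in double knockdown, against 2993, 2817, 3188 and 4083 in GFP control. All 8 libraries given Tfap2c dsRNA lay below all 4 controls, while Tead4 knockdown libraries lay below the controls in cross A and among them in cross B. The log2 change was -0.79 ± 0.16 (SE; adjusted p = 0.00165) in Tfap2c knockdown and -0.87 ± 0.16 (SE; adjusted p = 0.000957) in double knockdown, and -0.26 ± 0.16 (SE; adjusted p = 0.391) in Tead4 knockdown, which was not called. Hsp90ab1, the constitutive gene of the pair, had 1206, 1154, 1081 and 1061 FPKM in Tfap2c knockdown and 1109.5, 1109, 1073 and 1071 in double knockdown, against 1337, 1241, 1257 and 1303 in GFP control. Again neither knockdown overlapped the controls, but the shift was small, at -0.19 ± 0.049 (SE; adjusted p = 0.0091) in Tfap2c knockdown and -0.24 ± 0.049 (SE; adjusted p = 0.00281) in double knockdown. The Hsp90ab1 call in Tfap2c knockdown was lost with only the compared groups in the fit (adjusted p = 0.0672).

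Dnaja1 was separated in the same way, with 825, 881, 815 and 726 FPKM in Tfap2c knockdown and 1163, 1084, 1359 and 1319.7 in Tead4 knockdown. Dnaja1 had 849, 866, 777 and 956 FPKM in double knockdown, against 1334, 1192, 1245 and 1341 in GFP control. Tead4 knockdown overlapped the controls. Every library with Tfap2c dsRNA lay below every library without it. On the log2 scale, the change was -0.66 ± 0.087 (SE; adjusted p = 7.11e-05) in Tfap2c knockdown, -0.06 ± 0.087 (SE; adjusted p = 0.779) in Tead4 knockdown and -0.57 ± 0.087 (SE; adjusted p = 0.000264) in double knockdown. Summed over the 3 HSP90 genes, the level was 3024 ± 270 FPKM in Tfap2c knockdown, 4090 ± 732 in Tead4 knockdown and 2893 ± 272 in double knockdown, against 4569 ± 580 in GFP control (SD, n = 4 each).

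Dnajc2, which joins Hspa14 in the ribosome-associated complex that receives nascent chains, also fell. It had 95.5, 96.1, 82.2 and 103 FPKM in Tfap2c knockdown and 134, 147, 216 and 241 in Tead4 knockdown. Dnajc2 had 63.2, 74.8, 104 and 153 FPKM in double knockdown, against 155, 159, 190.5 and 201 in GFP control. Tfap2c and double knockdown libraries lay below every control library, with a log2 change of -0.90 ± 0.17 (SE; adjusted p = 0.00119) in Tfap2c knockdown and -0.90 ± 0.17 (SE; adjusted p = 0.0013) in double knockdown. Its partner Hspa14 was not called against the control in any knockdown, with 103 ± 11.1, 127 ± 14.1 and 102 ± 12.5 FPKM in Tfap2c, Tead4 and double knockdown, against 120.1 ± 12 in GFP control (SD, n = 4 each).

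The HSP110 gene Hsph1, a nucleotide exchange factor for HSP70, had 12.8, 11.9, 23.4 and 23.1 FPKM in Tfap2c knockdown and 12.9, 15.5, 20.9 and 24.9 in double knockdown, against 18.8, 15, 31.9 and 33.9 in GFP control. The groups overlapped, with cross B libraries higher than cross A libraries in every group, and within each cross the Tfap2c knockdown libraries lay below the controls. The log2 change with cross in the fit was -0.45 ± 0.13 (SE; adjusted p = 0.0162) in Tfap2c knockdown and -0.37 ± 0.13 (SE; adjusted p = 0.0451) in double knockdown. The first call was lost without GFP control B2 (adjusted p = 0.0518) and without cross in the fit (adjusted p = 0.352). The second was lost without any 1 of 11 libraries, Tfap2c knockdown A1, A2, B1 or B2, Tead4 knockdown A1, double knockdown A1, B1 or B2 or GFP control A1, B1 or B2 (adjusted p 0.0507 to 0.136), and with no filter on low values, without cross in the fit or with only the compared groups in the fit (adjusted p 0.0616 to 0.475).

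Not all abundant cytosolic genes moved. Hspa8 had 3483, 3403, 3673 and 3951 FPKM in Tfap2c knockdown and 3037, 3245, 4633 and 4746 in Tead4 knockdown. Hspa8 had 3634, 3141, 3194 and 4005 FPKM in double knockdown, against 3469.7, 3276, 4131 and 4856 in GFP control. The ranges overlapped, and the log2 change was -0.10 ± 0.10 (SE; adjusted p = 0.508) in Tfap2c knockdown, -0.02 ± 0.10 (SE; adjusted p = 0.954) in Tead4 knockdown and -0.16 ± 0.10 (SE; adjusted p = 0.286) in double knockdown. The second HSP110 gene Hspa4 and the stress-inducible J protein gene Dnajb1 were not called against the control in any knockdown either, at 43.3 ± 11.3 against 45.6 ± 6.24 FPKM and 49 ± 4.33 against 49.4 ± 11.3 FPKM in Tfap2c knockdown and GFP control. Of the 15 tested genes grouped as cytosolic, 3 were higher and 5 lower in Tfap2c knockdown (median log2 change -0.09), none was called in Tead4 knockdown (0.01), and 3 were higher and 4 lower in double knockdown (-0.15). Of all tested genes, 16.3% were higher and 13.2% lower in Tfap2c knockdown, and 13.9% and 11.3% in double knockdown. With median-ratio rescaling, 2 were higher and 6 lower of the 15 in Tfap2c knockdown, and 1 was higher and 5 lower in double knockdown. With quantile normalization the median in Tfap2c knockdown was 0.01. At an unadjusted p under 0.05, 3 of the 15 passed in Tead4 knockdown, beside 2415 of all 11422 tested genes. The grouping was made after values were seen and has no test, so nothing is read from these counts.

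**Figure D2:**
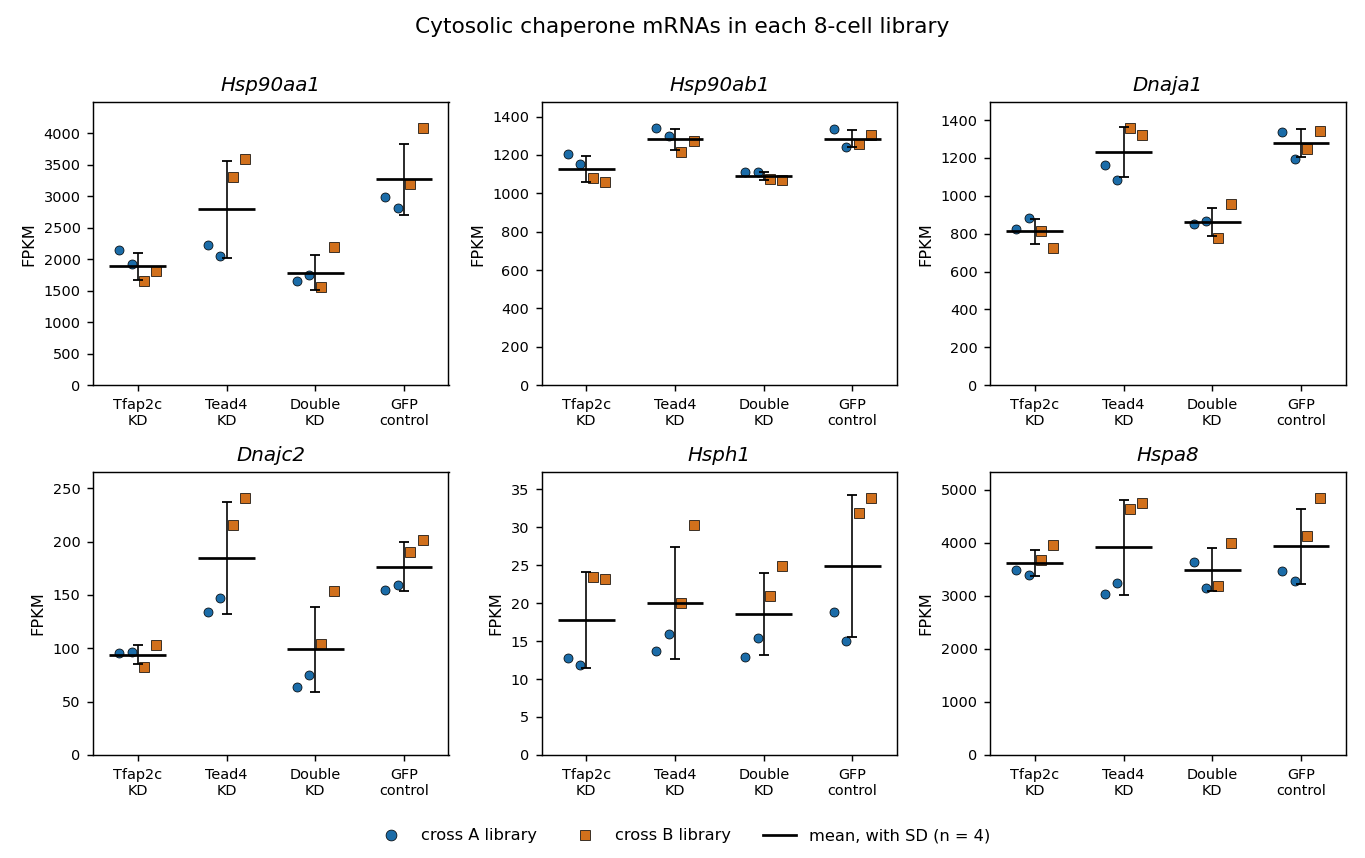
FPKM of cytosolic chaperone genes in each library, by group, with circles for cross A, squares for cross B and lines for the mean and SD (n = 4). Hsp90aa1 and Dnaja1 separate the libraries with Tfap2c dsRNA from GFP control, while Hspa8 overlaps in all groups.

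Rarer HSP70 genes had higher values after Tfap2c knockdown. Hspa1a, a heat-inducible HSP70 and an early gene of the mouse embryo, had 0.377, 0.487, 2.29 and 1.92 FPKM in Tfap2c knockdown and 0.370, 0.390, 0.373 and 0.271 in Tead4 knockdown. Hspa1a had 0.775, 1.45, 1.12 and 0.595 FPKM in double knockdown, against 0.162, 0.180, 0.182 and 0.320 in GFP control. Every Tfap2c and double knockdown library lay above every control, and the highest were the Tfap2c knockdown libraries of cross B. The 4 libraries at 1 FPKM or more were 2 of Tfap2c knockdown and 2 of double knockdown, so the gene was kept for testing only by the groups in which it was high, and its calls are no support for a rise. With no filter on low values, the adjusted p was 0.0427 in Tfap2c knockdown and 0.088 in double knockdown, and the first call was lost without any 1 of 2 libraries, Tfap2c knockdown B1 or B2 (adjusted p 0.0604 to 0.0622) where the filter was used. Its neighbour Hspa1b is near identical in sequence, so the division of reads between them is uncertain, and it never exceeded 0.660 FPKM and was not tested.

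Hspa2, an HSP70 best known from spermatogenesis, had 5.04, 4.16, 12.1 and 7.36 FPKM in Tfap2c knockdown and 8.05, 6.84, 3.87 and 4.38 in Tead4 knockdown. Hspa2 had 4.62, 5.07, 9.66 and 9.45 FPKM in double knockdown, against 2.52, 3.31, 4.17 and 3.54 in GFP control. All double knockdown libraries were above all controls, and 1 Tfap2c knockdown library lay within the control range. Limma gave a log2 change of 0.82 ± 0.28 (SE; adjusted p = 0.0376) in Tfap2c knockdown and 0.85 ± 0.28 (SE; adjusted p = 0.0344) in double knockdown. These calls were lost without any 1 of 6 libraries, Tfap2c knockdown B1 or B2 or GFP control A1, A2, B1 or B2 (adjusted p 0.0532 to 0.126) for Tfap2c knockdown, and without any 1 of 5 libraries, double knockdown B1 or B2 or GFP control A1, B1 or B2 (adjusted p 0.0565 to 0.0963) for double knockdown. They were also lost with no filter on low values, with median-ratio rescaling, with quantile normalization, without cross in the fit or with the replicate block (adjusted p 0.0539 to 0.0929) in Tfap2c knockdown, and with no filter on low values, with median-ratio rescaling, without cross in the fit or with the replicate block (adjusted p 0.0502 to 0.0896) in double knockdown.

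Heat shock factors (HSFs) bind DNA at heat shock elements and are the best known regulators of chaperone genes, and HSF2 is active in early embryos and germ cells. Of 5 listed HSF genes and partners, 3 were tested, and Hsf2 fell in both groups given Tfap2c dsRNA. Hsf2 had 3.60, 5.48, 11.8 and 10.2 FPKM in Tfap2c knockdown and 17.8, 16.3, 18.3 and 24.2 in Tead4 knockdown. Hsf2 had 6.67, 5.92, 8.31 and 15.9 FPKM in double knockdown, against 21.4, 19.4, 29.5 and 28 in GFP control. Tfap2c and double knockdown libraries lay below every control library. The log2 change was -1.64 ± 0.20 (SE; adjusted p = 3.37e-05) in Tfap2c knockdown, -0.34 ± 0.20 (SE; adjusted p = 0.373) in Tead4 knockdown, which was not called, and -1.40 ± 0.20 (SE; adjusted p = 0.00016) in double knockdown. Hsf1, the main heat shock regulator, and Hsbp1, a small protein that binds it, were not called in these comparisons, with a log2 change of 0.08 and -0.17 in Tfap2c knockdown.

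A heat shock element, searched as GAANNTTC or TTCNNGAA on either strand with overlaps allowed, stood in the promoter window (250 bases before to 50 after a transcript start, RefSeq, GRCm38.p6) of 17.0% of 27025 genes and of 19 of the 65 chaperone genes matched to that table (29.2%). The windows of 3 genes with different values after Tfap2c knockdown are shown here, limited to bases before the start, with the match in capitals.
Dnaja1, chr4:40722318-40722467, plus strand: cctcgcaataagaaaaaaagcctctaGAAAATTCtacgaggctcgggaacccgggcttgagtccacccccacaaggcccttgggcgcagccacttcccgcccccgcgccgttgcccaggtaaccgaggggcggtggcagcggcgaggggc
Hsph1, chr5:149636337-149636486, minus strand: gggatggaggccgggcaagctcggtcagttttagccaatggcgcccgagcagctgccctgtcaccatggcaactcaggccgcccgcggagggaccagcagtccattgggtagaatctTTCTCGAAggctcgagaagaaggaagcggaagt
Hspa1a, chr17:34972157-34972406, minus strand: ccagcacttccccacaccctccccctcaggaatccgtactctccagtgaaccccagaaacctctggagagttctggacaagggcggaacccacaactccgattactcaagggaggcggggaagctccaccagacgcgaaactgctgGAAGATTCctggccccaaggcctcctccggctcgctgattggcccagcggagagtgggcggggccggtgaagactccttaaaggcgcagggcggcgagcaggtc
The match began 124 bases before the start in Dnaja1, 33 in Hsph1 and 104 in Hspa1a. For Dnaja1 the window is that of the first of 3 listed starts, and the windows of the other two held no match. For Hsph1 it is that of the first of 2 starts, and 2 more of the 3 matches in its window lie after the start and are not shown. Of the 3 genes, Dnaja1 and Hsph1 fell. Of the 12 tested chaperone genes with a match, 2 were higher and 4 lower in Tfap2c knockdown, and 1 was higher and 2 lower in double knockdown. The genes called higher were Hspa1a and, in Tfap2c knockdown, Dnajc27, which were tested only because of the groups in which they were high. Of the 33 matched genes without one, 11 were higher and 4 lower in Tfap2c knockdown, and 9 were higher and 2 lower in double knockdown. These classes cover only the 45 of the 60 tested genes that were matched to that table. Hsp90aa1, Hsp90ab1 and Dnajc2 were not matched and stand in neither class, so their promoters were not searched. Over all tested genes the shares were 16.3% higher and 13.2% lower in Tfap2c knockdown and 13.9% and 11.3% in double knockdown. A match is a description of letters and not a bound site.

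Chaperone genes of the ER were called higher and lower. Of 10 tested genes grouped by this place of work, 5 were higher and 2 lower in Tfap2c knockdown (median log2 change 0.45), 3 were higher in Tead4 knockdown (0.45) and 4 were higher in double knockdown (0.26), beside medians of 0.06, 0.05 and 0.05 over all tested genes. With median-ratio rescaling the medians were 0.38, 0.39 and 0.22, with 4 higher and 2 lower, 1 higher, and 4 higher and 1 lower. Of all tested genes, 16.3%, 3.35% and 13.9% were higher and 13.2%, 2.78% and 11.3% lower. The grouping was made after values were seen and has no test, so nothing is read from these counts.

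Dnajb9 is an inducible J protein that helps clear misfolded proteins from the ER. It had 738, 679.6, 736 and 766 FPKM in Tfap2c knockdown and 599, 632, 662 and 658 in Tead4 knockdown. Dnajb9 had 697, 696, 764 and 929.7 FPKM in double knockdown, against 436, 549, 507 and 468 in GFP control. All 12 knockdown libraries lay above all 4 controls. On the log2 scale, the change was 0.58 ± 0.084 (SE; adjusted p = 0.000157) in Tfap2c knockdown, 0.38 ± 0.084 (SE; adjusted p = 0.0134) in Tead4 knockdown and 0.65 ± 0.084 (SE; adjusted p = 7.22e-05) in double knockdown. The call in Tead4 knockdown was lost without any 1 of 2 libraries, GFP control A1 or B2 (adjusted p 0.0501 to 0.0537) and with median-ratio rescaling (adjusted p = 0.0501).

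Hspa5, the central HSP70 of the ER, had 106, 108, 131 and 128 FPKM in Tfap2c knockdown and 98.9, 125, 143 and 114 in Tead4 knockdown. Hspa5 had 121, 137, 115 and 97.1 FPKM in double knockdown, against 67.5, 79.3, 93.9 and 107 in GFP control. The groups overlapped, and the controls of cross B were higher than those of cross A. Its log2 change was 0.45 ± 0.14 (SE; adjusted p = 0.0227) in Tfap2c knockdown, 0.47 ± 0.14 (SE; adjusted p = 0.0557) in Tead4 knockdown, which was not called, and 0.45 ± 0.14 (SE; adjusted p = 0.0279) in double knockdown. The call was lost without any 1 of 4 libraries, Tfap2c knockdown B1 or B2 or GFP control A1 or A2 (adjusted p 0.0508 to 0.0795) for Tfap2c knockdown, and without any 1 of 4 libraries, double knockdown A1 or A2 or GFP control A1 or A2 (adjusted p 0.0593 to 0.101) for double knockdown. It was also lost with no filter on low values (adjusted p = 0.0565) in Tfap2c knockdown, and with no filter on low values, without cross in the fit or with only the compared groups in the fit (adjusted p 0.0567 to 0.0745) in double knockdown. Hsp90b1 was not called against the control in any knockdown, with 17.9, 14.6, 14.1 and 16.2 FPKM in Tfap2c knockdown and 15, 16.3, 23.7 and 20.4 in Tead4 knockdown. Hsp90b1 had 16.5, 18.5, 12.2 and 12.7 FPKM in double knockdown, against 9.32, 14.1, 14.5 and 17 in GFP control. The ranges overlapped. Limma gave a log2 change of 0.20 ± 0.18 (SE; adjusted p = 0.447), 0.44 ± 0.18 (SE; adjusted p = 0.184) and 0.13 ± 0.18 (SE; adjusted p = 0.663) in Tfap2c, Tead4 and double knockdown.

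Dnajb14, a J protein of the ER membrane, had the largest rise of the tested chaperone genes in Tfap2c knockdown on the log2(FPKM + 1) scale. As a share of the control mean it stood at 303%, below Hspa1a at 601% and the Dnajc19 entry ENSMUSG00000103988 at 427%. The mean of that entry in Tfap2c knockdown rests on library B1 alone, at 5.52 FPKM. Dnajb14 had 17.3, 17, 25.6 and 18.5 FPKM in Tfap2c knockdown and 11.8, 9.69, 4.69 and 4.95 in Tead4 knockdown. Dnajb14 had 20.4, 26.1, 17.5 and 11.7 FPKM in double knockdown, against 5.25, 8.23, 7.61 and 4.75 in GFP control. All Tfap2c and double knockdown libraries were above all controls, whereas the Tead4 knockdown libraries of cross A lay above the controls and those of cross B near the lowest control. The log2 change was 1.48 ± 0.25 (SE; adjusted p = 0.000563) in Tfap2c knockdown, 0.17 ± 0.25 (SE; adjusted p = 0.771) in Tead4 knockdown and 1.40 ± 0.25 (SE; adjusted p = 0.001) in double knockdown. Its close relative Dnajb12 went the other way, with 15.1, 15.8, 10.2 and 13.4 FPKM in Tfap2c knockdown against 18.1, 17.3, 15.7 and 16.2 in GFP control and a log2 change of -0.30 ± 0.11 (SE; adjusted p = 0.0433). That call was lost without any 1 of 10 libraries, Tfap2c knockdown A1 or B1, Tead4 knockdown A1 or B1, double knockdown A1 or B2 or GFP control A1, A2, B1 or B2 (adjusted p 0.0515 to 0.137), and with no filter on low values, without cross in the fit, with the replicate block or with only the compared groups in the fit (adjusted p 0.0512 to 0.143).

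Dnajc1 (ERdj1), a membrane J protein that meets ribosomes at the ER, had 16.2, 12.6, 15.6 and 13.1 FPKM in Tfap2c knockdown and 12.8, 8.75, 17.8 and 11.4 in Tead4 knockdown. Dnajc1 had 13.6, 13.9, 13.2 and 14.4 FPKM in double knockdown, against 6.18, 6.12, 11.1 and 7.25 in GFP control. Tfap2c and double knockdown libraries were above all controls, and 3 of 4 Tead4 knockdown libraries were. On the log2 scale, the change was 0.85 ± 0.18 (SE; adjusted p = 0.00216) in Tfap2c knockdown, 0.66 ± 0.18 (SE; adjusted p = 0.039) in Tead4 knockdown and 0.80 ± 0.18 (SE; adjusted p = 0.00374) in double knockdown. The call in Tead4 knockdown was lost without any 1 of 6 libraries, Tfap2c knockdown A2, Tead4 knockdown A1 or B1 or GFP control A1, A2 or B2 (adjusted p 0.0514 to 0.119), and with no filter on low values, with median-ratio rescaling, with quantile normalization, without cross in the fit or with only the compared groups in the fit (adjusted p 0.0521 to 0.1).

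Dnajc10 (ERdj5), a J protein that reduces disulfide bonds of misfolded ER proteins, fell in Tfap2c knockdown. It had 2.94, 2.22, 2.83 and 2.54 FPKM in Tfap2c knockdown and 5.10, 7.38, 12.8 and 12.5 in Tead4 knockdown. Dnajc10 had 5.29, 3.22, 4.14 and 5.32 FPKM in double knockdown, against 3.59, 4.10, 7.97 and 9.59 in GFP control. Each Tfap2c knockdown library was below each control, and double knockdown overlapped the controls. Its log2 change was -0.92 ± 0.22 (SE; adjusted p = 0.00535) in Tfap2c knockdown, 0.52 ± 0.22 (SE; adjusted p = 0.177) in Tead4 knockdown and -0.34 ± 0.22 (SE; adjusted p = 0.275) in double knockdown, of which the first was called.

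Dnajc3 (p58IPK), which binds unfolded proteins in the ER, was called higher in Tead4 knockdown. It had 16, 14.1, 11.2 and 10.6 FPKM in Tfap2c knockdown and 17, 21.8, 15.7 and 13 in Tead4 knockdown. Dnajc3 had 15.4, 16.4, 9.79 and 10.3 FPKM in double knockdown, against 13.1, 13.2, 11.2 and 9.78 in GFP control. The ranges overlapped between crosses, and within each cross the Tead4 knockdown libraries lay above the controls. Limma gave a log2 change of 0.46 ± 0.11 (SE; adjusted p = 0.0177) in Tead4 knockdown, and this call was lost without any 1 of 5 libraries, Tead4 knockdown A2 or B1 or GFP control A1, A2 or B2 (adjusted p 0.051 to 0.0636) and without cross in the fit (adjusted p = 0.266).

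**Figure D3:**
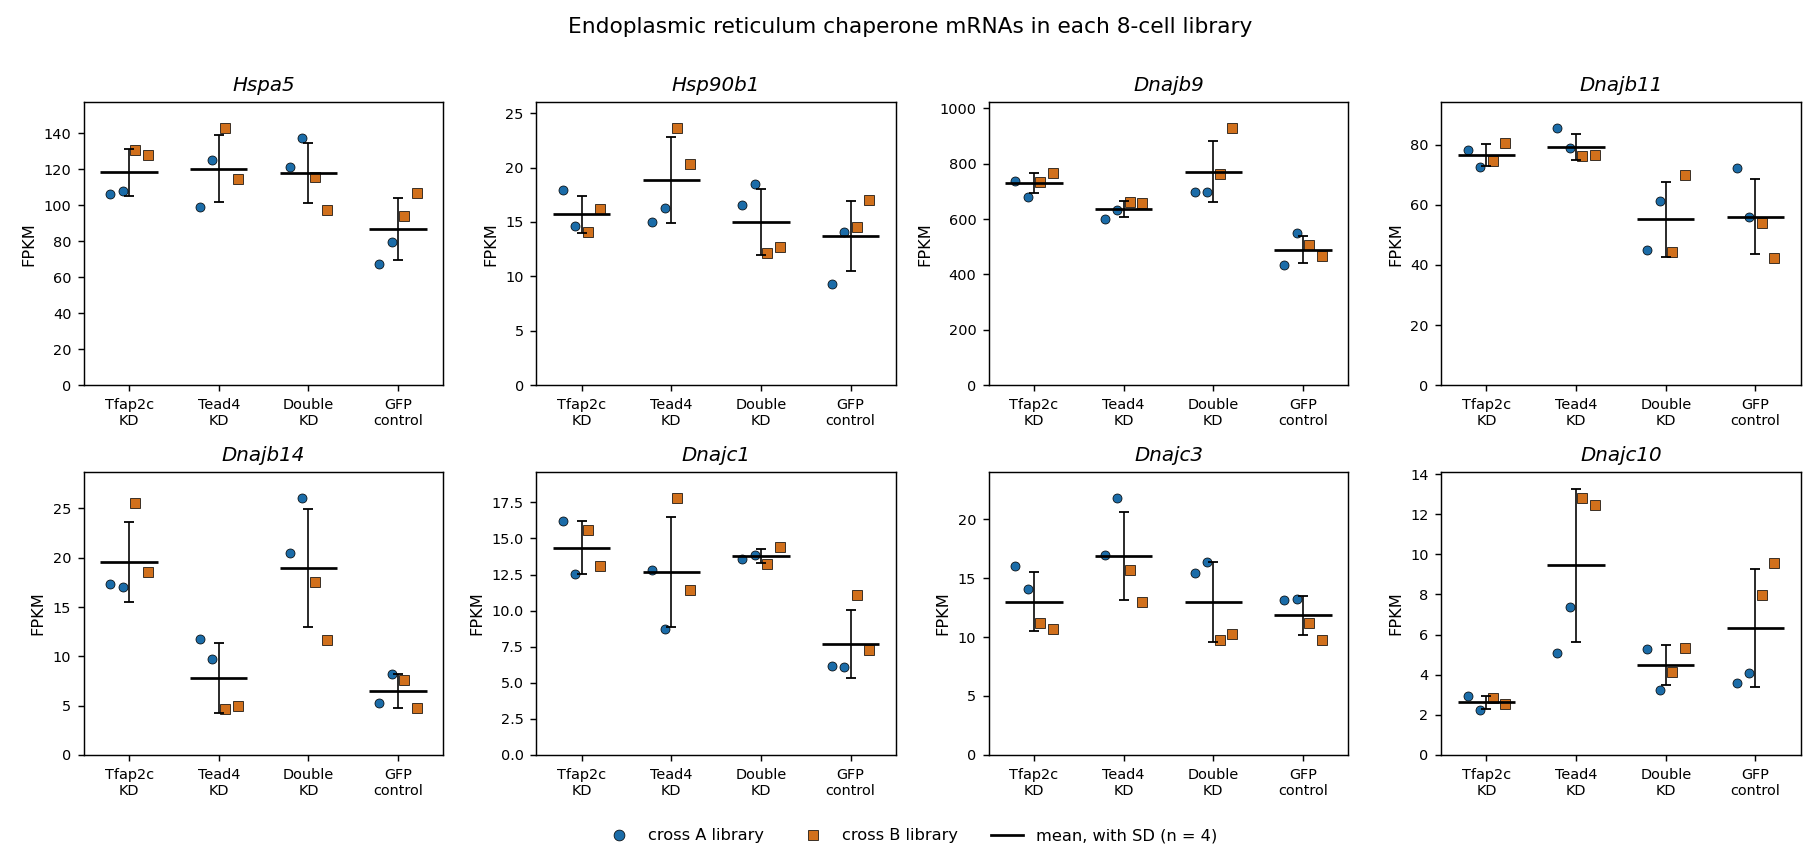
FPKM of ER chaperone genes in each library, by group, with circles for cross A, squares for cross B and lines for the mean and SD (n = 4). All 12 knockdown libraries lie above the controls for Dnajb9, while Dnajb14 and Dnajc1 are above the controls in every library with Tfap2c dsRNA.

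The ER stress element, CCAAT and CCACG with 9 bases between them, is the classic site of the unfolded protein response. Read on either strand, it stood in the promoter window of 0.137% of genes (37 of 27025) and of 3 of the 65 matched chaperone genes, Hspa5, Dnajc3 and Hsp90b1. Their windows before the start are shown with each match in capitals.
Hspa5, chr2:34771940-34772089, plus strand: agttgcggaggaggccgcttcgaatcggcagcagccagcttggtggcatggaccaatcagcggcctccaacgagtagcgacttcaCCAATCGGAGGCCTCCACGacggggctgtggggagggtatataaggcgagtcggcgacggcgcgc
Dnajc3, chr14:118937782-118937931, plus strand: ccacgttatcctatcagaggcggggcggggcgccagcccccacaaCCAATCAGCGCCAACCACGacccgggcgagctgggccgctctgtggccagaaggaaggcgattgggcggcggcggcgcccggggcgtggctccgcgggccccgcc
Hsp90b1, chr10:86705445-86705694, minus strand: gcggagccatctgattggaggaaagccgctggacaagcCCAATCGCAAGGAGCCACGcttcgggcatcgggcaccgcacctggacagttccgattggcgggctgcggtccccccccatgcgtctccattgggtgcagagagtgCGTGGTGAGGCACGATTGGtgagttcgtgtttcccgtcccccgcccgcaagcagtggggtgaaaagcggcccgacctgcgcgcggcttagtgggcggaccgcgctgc
The match began 65 bases before the start in Hspa5 and 105 in Dnajc3, and Hsp90b1 held 2 matches, at 212 and 107 bases. Of these 3 genes, Hspa5 was higher in Tfap2c and double knockdown, Dnajc3 was higher in Tead4 knockdown, and Hsp90b1 was called in none of them. Dnajb9 and Dnajb11, which were called higher in Tfap2c knockdown, held no match in their windows.

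Some other genes of ER folding and stress, which are not Hsp, Dnaj or Cct genes, were called. Of 31 listed, 30 were tested. In Tfap2c knockdown 6 were higher and 1 lower, in Tead4 knockdown 1 higher and 1 lower, and in double knockdown 3 higher and 2 lower. That is 23.3%, 6.67% and 16.7% called, beside 29.6%, 6.13% and 25.1% of all tested genes, so nothing is read from these counts. The disulfide isomerase gene Pdia4 had 40.7, 41.7, 24.1 and 26.1 FPKM in Tfap2c knockdown and 31.1, 40.0, 26.3 and 28.2 in double knockdown, against 21.7, 19.9, 13.9 and 14 in GFP control, without overlap. Pdia4 changed by 0.88 ± 0.11 (SE; adjusted p = 6.35e-05) in Tfap2c knockdown and 0.83 ± 0.11 (SE; adjusted p = 0.000125) in double knockdown. Edem1, a lectin that sends misfolded glycoproteins to degradation, had a log2 change of 1.06 ± 0.17 (SE; adjusted p = 0.000361) in Tfap2c knockdown and 0.94 ± 0.17 (SE; adjusted p = 0.00104) in double knockdown. Fkbp11, a prolyl isomerase of the secretory pathway, had a log2 change of 1.17 ± 0.16 (SE; adjusted p = 8.4e-05) in Tfap2c knockdown and 0.85 ± 0.16 (SE; adjusted p = 0.00125) in double knockdown, both lost without cross in the fit (adjusted p 0.103 and 0.263).

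Among J proteins that work outside the main folding pathways, Dnajc9 was called in all 3 comparisons with the shared control. Dnajc9, a chaperone of histones H3 and H4, had 48.1, 50.1, 38.5 and 38 FPKM in Tfap2c knockdown and 48.2, 54, 57.2 and 48.5 in Tead4 knockdown. Dnajc9 had 53, 48.7, 44.5 and 49.7 FPKM in double knockdown, against 34, 39.3, 30.7 and 32.3 in GFP control. Tead4 and double knockdown libraries were above all controls, and the cross B libraries of Tfap2c knockdown lay within the range of the controls. The log2 change was 0.34 ± 0.10 (SE; adjusted p = 0.0138) in Tfap2c knockdown, 0.60 ± 0.10 (SE; adjusted p = 0.0017) in Tead4 knockdown and 0.51 ± 0.10 (SE; adjusted p = 0.0012) in double knockdown. The call in Tfap2c knockdown was lost with median-ratio rescaling (adjusted p = 0.0517).

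Dnajc12, a cochaperone of the aromatic amino acid hydroxylases, had 12.5, 16.8, 12.2 and 17.9 FPKM in Tfap2c knockdown and 6.45, 4.53, 5.02 and 4.23 in Tead4 knockdown. Dnajc12 had 17.3, 15.5, 9.73 and 11.8 FPKM in double knockdown, against 6.99, 6.91, 8.71 and 10.3 in GFP control. Tfap2c knockdown lay above the controls and Tead4 knockdown below them, while 1 library of double knockdown lay within the control range. On the log2 scale, the change was 0.78 ± 0.19 (SE; adjusted p = 0.00678) in Tfap2c knockdown, -0.60 ± 0.19 (SE; adjusted p = 0.0733) in Tead4 knockdown, which was not called, and 0.65 ± 0.19 (SE; adjusted p = 0.022) in double knockdown. The last call was lost without any 1 of 4 libraries, double knockdown A1 or A2 or GFP control A1 or A2 (adjusted p 0.066 to 0.076), and with no filter on low values or with only the compared groups in the fit (adjusted p 0.0503 to 0.0544).

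Dnajc17, which is found with the spliceosome, had 20.8, 21, 18.6 and 20.1 FPKM in Tfap2c knockdown and 20.4, 23.9, 21.2 and 20.9 in Tead4 knockdown. Dnajc17 had 24.9, 22.8, 18.3 and 17.7 FPKM in double knockdown, against 15.6, 16.6, 15.4 and 16.5 in GFP control. All 12 knockdown libraries were above all controls. Its log2 change was 0.31 ± 0.094 (SE; adjusted p = 0.0227), 0.40 ± 0.094 (SE; adjusted p = 0.0197) and 0.35 ± 0.094 (SE; adjusted p = 0.013) in Tfap2c, Tead4 and double knockdown. The call was lost without any 1 of 3 libraries, Tfap2c knockdown B2 or GFP control A1 or A2 (adjusted p 0.0523 to 0.0694) in Tfap2c knockdown, and without any 1 of 5 libraries, Tead4 knockdown A2, B1 or B2 or GFP control A1 or A2 (adjusted p 0.0504 to 0.0653) in Tead4 knockdown. It was also lost with median-ratio rescaling or without cross in the fit (adjusted p 0.0587 to 0.0634) in Tfap2c knockdown and without cross in the fit (adjusted p = 0.0754) in Tead4 knockdown.

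Dnajc24, which takes part in making diphthamide, a modified residue of an elongation factor, had 29.7, 26.7, 19 and 15.6 FPKM in Tfap2c knockdown against 30.2, 34.1, 23.9 and 31.9 in GFP control, with overlap and a log2 change of -0.42 ± 0.12 (SE; adjusted p = 0.0149). That call was lost without any 1 of 2 libraries, Tfap2c knockdown B2 or GFP control B2 (adjusted p 0.0559 to 0.0564), and without cross in the fit or with only the compared groups in the fit (adjusted p 0.0646 to 0.128). The mitochondrial J protein gene Dnajc30 had 7.68, 7.25, 8.82 and 9.80 FPKM in double knockdown against 10.1, 9.65, 11.5 and 13.5 in GFP control, with overlap and a log2 change of -0.37 ± 0.12 (SE; adjusted p = 0.0308). That call was lost without any 1 of 6 libraries, double knockdown A2, B1 or B2 or GFP control A1, A2 or B2 (adjusted p 0.0501 to 0.0865), and without cross in the fit (adjusted p = 0.181).

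Of the other called J protein genes, Dnajb6, which keeps proteins from aggregating, had 941, 900.0, 1082 and 924 FPKM in Tfap2c knockdown against 1038, 1168, 1069.6 and 1243 in GFP control, with overlap and a log2 change of -0.23 ± 0.075 (SE; adjusted p = 0.0306). Dnajb2, a neuron-enriched J protein that hands clients to the proteasome, was far lower and had a log2 change of 0.64 ± 0.18 (SE; adjusted p = 0.0163) in Tfap2c knockdown and 0.53 ± 0.18 (SE; adjusted p = 0.0437) in double knockdown. Dnajc27 had 1.28, 1.02, 0.737 and 1.07 FPKM in Tfap2c knockdown against 0.613, 0.490, 0.744 and 0.447 in GFP control, and its call is not read, since 3 Tfap2c and 1 double knockdown library alone kept it for testing. With no filter its adjusted p was 0.0627. The calls were lost without any 1 of 4 libraries, Tfap2c knockdown A2 or B2 or GFP control A2 or B2 (adjusted p 0.0623 to 0.109) for Dnajb6, and without any 1 of 2 libraries, Tfap2c knockdown A2 or GFP control A2 (adjusted p 0.0501 to 0.0515) and without any 1 of 9 libraries, Tead4 knockdown A2 or B1, double knockdown A1, A2, B1 or B2 or GFP control A2, B1 or B2 (adjusted p 0.0504 to 0.111) for Dnajb2 in Tfap2c and double knockdown. The Dnajb6 call was also lost with no filter on low values, with quantile normalization, without cross in the fit or with only the compared groups in the fit (adjusted p 0.0624 to 0.128), and the Dnajb2 call in double knockdown with no filter on low values, with median-ratio rescaling, with quantile normalization, without cross in the fit or with the replicate block (adjusted p 0.0544 to 0.0942). Dnaja2, a second J partner of HSP70 in the cytosol, and Dnajc7, which binds both HSP70 and HSP90, were not called against the control in any knockdown. Dnaja2 had 117 ± 5.52, 104 ± 4.64 and 112 ± 10.4 FPKM in Tfap2c, Tead4 and double knockdown, against 103 ± 6.11 in GFP control, and Dnajc7 had 111 ± 11.6, 100.4 ± 7.61 and 100.2 ± 5.92, against 99.9 ± 11.2 (SD, n = 4 each).

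The mRNAs of CCT subunits with a Cct symbol stayed close to their control levels, apart from the testis-type subunit gene. The alpha subunit gene of the ring, Tcp1, lacks such a symbol and is not among the chaperone genes described here. Of the 10 CCT genes, 8 were tested, and the genes Cct2 to Cct8 without Cct6b had log2 changes between -0.26 and 0.27 in Tfap2c knockdown, -0.09 and 0.05 in Tead4 knockdown and -0.27 and 0.22 in double knockdown. Their levels in GFP control ran from 193 ± 1.79 FPKM for Cct2 to 597 ± 79.9 FPKM for Cct8 (SD, n = 4). Cct4 had 507, 494, 519 and 518 FPKM in Tfap2c knockdown against 430.1, 491, 369 and 405 in GFP control, without overlap and with a log2 change of 0.27 ± 0.083 (SE; adjusted p = 0.0228). Cct7 had 278, 240.0, 230.1 and 268 FPKM in Tfap2c knockdown and 245, 251, 244 and 263 in double knockdown, against 289, 286, 315 and 325 in GFP control, with a log2 change of -0.26 ± 0.083 (SE; adjusted p = 0.0295) in Tfap2c knockdown and -0.27 ± 0.083 (SE; adjusted p = 0.0257) in double knockdown. So 1 subunit gene of the ring was higher and another lower after Tfap2c knockdown. The Cct4 call was lost without any 1 of 4 libraries, Tfap2c knockdown B1 or B2 or GFP control A1 or B1 (adjusted p 0.0645 to 0.0804), and with median-ratio rescaling, with quantile normalization, without cross in the fit or with only the compared groups in the fit (adjusted p 0.0534 to 0.108). With median-ratio rescaling 0 CCT genes were higher and 4 lower in Tfap2c knockdown. The Cct7 calls were lost without any 1 of 6 libraries, Tfap2c knockdown A2, B1 or B2 or GFP control A1, B1 or B2 (adjusted p 0.054 to 0.0933) in Tfap2c knockdown, and without any 1 of 4 libraries, double knockdown B1 or GFP control A1, B1 or B2 (adjusted p 0.0503 to 0.0803) in double knockdown. They were also lost with no filter on low values, without cross in the fit or with only the compared groups in the fit (adjusted p 0.0537 to 0.0678) in Tfap2c knockdown, and without cross in the fit (adjusted p = 0.0631) in double knockdown.

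The remaining ring subunits with a Cct symbol were not called against the control in any knockdown. In Tfap2c knockdown, the log2 change was -0.17 ± 0.079 (SE; adjusted p = 0.131) for Cct2, 0.03 ± 0.071 (SE; adjusted p = 0.815) for Cct3, -0.12 ± 0.10 (SE; adjusted p = 0.4) for Cct5, -0.13 ± 0.082 (SE; adjusted p = 0.255) for Cct6a and -0.14 ± 0.078 (SE; adjusted p = 0.186) for Cct8. In double knockdown, it was -0.06 for Cct2, 0.04 for Cct3, -0.18 for Cct5, -0.14 for Cct6a and -0.10 for Cct8. In Tead4 knockdown, it was -0.05, 0.05, -0.03, 0.05 and -0.04 in the same order.

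Cct6b, a paralog of the zeta subunit gene Cct6a known from testis, was far lower than the ring genes and changed in all 3 knockdowns. It had 2.20, 1.74, 5.18 and 7.68 FPKM in Tfap2c knockdown and 4.45, 4.84, 6.75 and 8.30 in Tead4 knockdown. Cct6b had 2.44, 3.11, 7.02 and 9.52 FPKM in double knockdown, against 8.72, 7.11, 11.9 and 18.8 in GFP control. The groups overlapped across crosses, with cross B libraries higher in every group, and within each cross the knockdown libraries lay below the controls. Limma gave a log2 change of -1.36 ± 0.19 (SE; adjusted p = 0.000128) in Tfap2c knockdown, -0.78 ± 0.19 (SE; adjusted p = 0.0259) in Tead4 knockdown and -1.02 ± 0.19 (SE; adjusted p = 0.00137) in double knockdown. The call in Tead4 knockdown was lost without any 1 of 5 libraries, Tead4 knockdown B1 or B2 or GFP control A1, A2 or B2 (adjusted p 0.0516 to 0.0917), and with no filter on low values or without cross in the fit (adjusted p 0.0638 to 0.414). The call in double knockdown was lost without cross in the fit (adjusted p = 0.112).

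**Figure D4:**
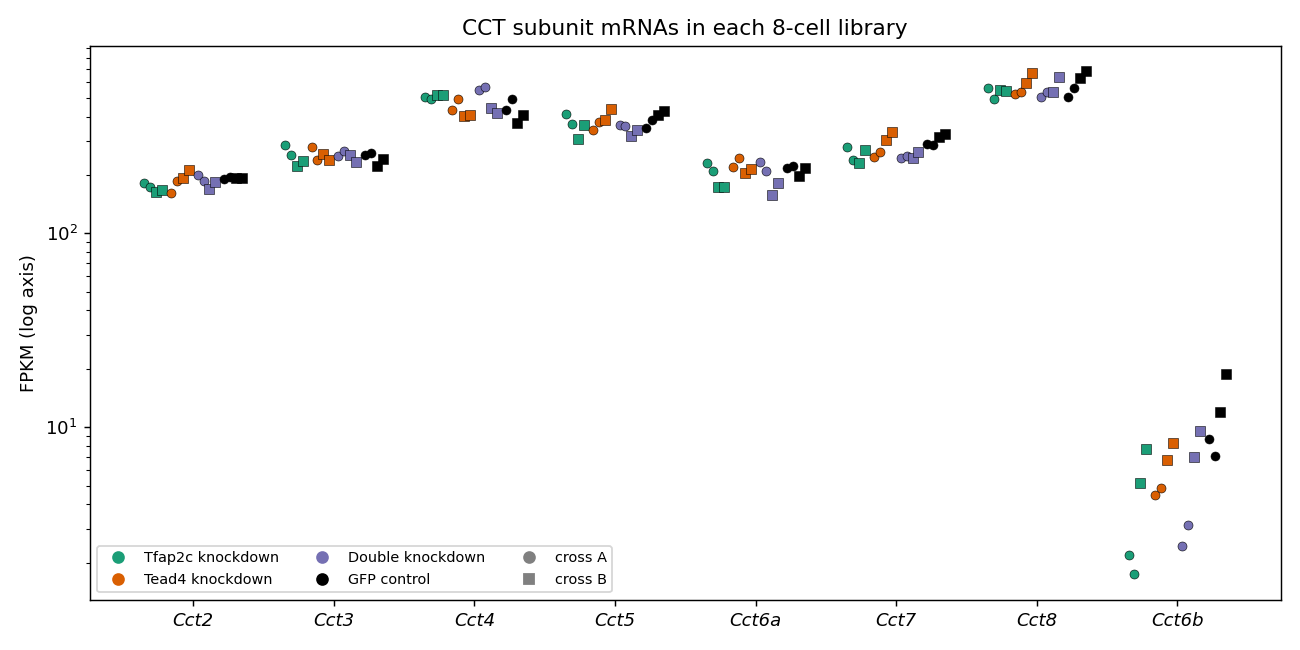
FPKM of the 8 tested CCT genes (log axis) in each library, with 1 colour per group, circles for cross A and squares for cross B. The ring genes stay within a narrow band in all groups, and Cct6b lies far below them with its lowest values in Tfap2c and double knockdown.

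A list of 12 genes held CCT partners and the alpha subunit gene Tcp1, and all were tested. In Tfap2c knockdown 1 was higher and 1 lower, in Tead4 knockdown none was called, and in double knockdown 1 was higher and 1 lower. That is 16.7%, 0% and 16.7% called, beside 29.6%, 6.13% and 25.1% of all tested genes. Pfdn5, a subunit of prefoldin, which hands actin and tubulin to CCT, had 557, 504, 410.4 and 558 FPKM in Tfap2c knockdown against 409, 387, 331 and 323 in GFP control, a log2 change of 0.48 ± 0.084 (SE; adjusted p = 0.00066). Uri1, a prefoldin-like protein, had a log2 change of -0.52 ± 0.14 (SE; adjusted p = 0.0119) in Tfap2c knockdown, a call lost without cross in the fit (adjusted p = 0.0933). Of 13 actin, actin-related and tubulin genes, the main clients of CCT, 12 were tested. In Tfap2c knockdown 4 were higher and 1 lower, in Tead4 knockdown 2 were higher, and in double knockdown 2 were higher. That is 41.7%, 16.7% and 16.7% called, beside 29.6%, 6.13% and 25.1% of all tested genes. The beta-tubulin gene Tubb5 had 37.8, 38.9, 18.8 and 23.9 FPKM in Tfap2c knockdown and 27.8, 25.4, 14.8 and 15.1 in Tead4 knockdown. Tubb5 had 27.5, 35.9, 14.3 and 19 FPKM in double knockdown, against 10.8, 13, 10.1 and 9.90 in GFP control. All 12 knockdown libraries were above all controls, with log2 changes of 1.31 ± 0.15 (SE; adjusted p = 1.9e-05), 0.82 ± 0.15 (SE; adjusted p = 0.00416) and 1.0 ± 0.15 (SE; adjusted p = 0.000222) in Tfap2c, Tead4 and double knockdown. The call in Tead4 knockdown was lost without cross in the fit (adjusted p = 0.177).

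Cochaperones of HSP90 and HSP70 were called in both directions. Of 23 listed HSP90 cochaperones, 22 were tested. In Tfap2c knockdown 2 were higher and 5 lower, in Tead4 knockdown none was called, and in double knockdown 1 was higher and 4 lower. That is 31.8%, 0% and 22.7% called, beside 29.6%, 6.13% and 25.1% of all tested genes. Sugt1 (SGT1), which links HSP90 to ubiquitin ligases, had 624, 649, 615 and 597 FPKM in Tfap2c knockdown and 642, 634, 627 and 662 in double knockdown, against 839.9, 864, 842 and 879 in GFP control. These groups did not overlap, and the log2 change was -0.46 ± 0.048 (SE; adjusted p = 9.21e-06) in Tfap2c knockdown and -0.42 ± 0.048 (SE; adjusted p = 2.92e-05) in double knockdown. Chordc1, an HSP90-binding protein, had a log2 change of -0.73 ± 0.16 (SE; adjusted p = 0.00396) in Tfap2c knockdown and Rpap3, part of a complex that carries clients to HSP90, one of 0.44 ± 0.10 (SE; adjusted p = 0.00313). The Chordc1 call was lost without cross in the fit (adjusted p = 0.0626). Of 16 listed HSP70 cochaperones, 15 were tested. In Tfap2c knockdown 4 were higher and 2 lower, in Tead4 knockdown none was called, and in double knockdown 4 were higher. That is 40%, 0% and 26.7% called, beside the same 29.6%, 6.13% and 25.1% of all tested genes. Bag2, a nucleotide exchange factor for HSP70, had 5.82, 5.78, 1.39 and 2.88 FPKM in Tfap2c knockdown and 8.40, 8.00, 2.08 and 2.30 in double knockdown, against 0.351, 0.874, 0.613 and 0.771 in GFP control. The log2 change was 1.47 ± 0.28 (SE; adjusted p = 0.0012) in Tfap2c knockdown and 1.72 ± 0.28 (SE; adjusted p = 0.000447) in double knockdown. Every control library was under 1 FPKM for Bag2, so only knockdown libraries kept it for testing. Its calls, which are among the higher ones counted above, are therefore no support for a rise. The related gene Bag5 had 0.44 ± 0.090 (SE; adjusted p = 0.00191) in Tfap2c knockdown and 0.44 ± 0.090 (SE; adjusted p = 0.00233) in double knockdown. At an unadjusted p under 0.05 in Tead4 knockdown, 5 of the 22 HSP90 cochaperones, 3 of the 15 HSP70 cochaperones and 2 of the 12 genes listed with the CCT partners passed. Of all 11422 tested genes, 2415 did so, and nothing is read from these counts.

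Of 9 tested entries grouped as mitochondrial, 1 was higher in Tfap2c knockdown (median log2 change -0.10) and 1 lower in double knockdown (median -0.01). None was called in Tead4 knockdown, where 0 passed an unadjusted p under 0.05, beside 2415 of all 11422 tested genes. Of all tested genes, 29.6%, 6.13% and 25.1% were called in Tfap2c, Tead4 and double knockdown. The 9 hold both Dnajc19 identifiers. ENSMUSG00000103988 reached 1 FPKM in 6 libraries, was near 0 in the others and had the highest log2 change of the 9 in Tead4 knockdown (1.13). The grouping was made after values were seen and has no test, so nothing is read from these counts. Scaling turned the direction in Tfap2c knockdown: median-ratio rescaling gave 0 higher and 2 lower genes, and quantile normalization gave 1 of each. In double knockdown, quantile normalization also gave 1 of each. Hspa9, the mitochondrial HSP70 mortalin, had 91.8 ± 4.91, 98.6 ± 8.41 and 89.5 ± 5.36 FPKM in Tfap2c, Tead4 and double knockdown, against 98.8 ± 11 in GFP control, with a log2 change of -0.10 ± 0.090 (SE; adjusted p = 0.446) in Tfap2c knockdown. Hspd1 and Hspe1 encode the mitochondrial chaperonin HSP60 and its lid. Hspd1 had 182, 155, 96.5 and 115 FPKM in Tfap2c knockdown against 126, 149.9, 119 and 143 in GFP control, and Hspe1 had 219.8, 160.3, 101 and 115 FPKM in Tfap2c knockdown against 117, 136, 133 and 179 in GFP control. In both, the Tfap2c knockdown libraries of cross A lay above the controls of that cross and those of cross B below, and the log2 change was -0.01 ± 0.16 (SE; adjusted p = 0.969) for Hspd1 and 0.03 ± 0.23 (SE; adjusted p = 0.94) for Hspe1. The pair lies head to head on chromosome 1, at 55077833 to 55088243 and 55088148 to 55091317 in GRCm38.p6, with 96 bases shared, so reads there cannot be assigned without strand. The called genes were Dnajc15, an import motor J protein, with 0.18 ± 0.062 (SE; adjusted p = 0.0445) in Tfap2c knockdown, and Dnajc30 in double knockdown, described above. The Dnajc15 call was lost without any 1 of 11 libraries, Tfap2c knockdown A1, A2, B1 or B2, Tead4 knockdown A2 or B2, double knockdown B1 or B2 or GFP control A1, A2 or B1 (adjusted p 0.0538 to 0.123). It was also lost with no filter on low values, with median-ratio rescaling, without cross in the fit, with the replicate block or with only the compared groups in the fit (adjusted p 0.0604 to 0.307), and with median-ratio rescaling the log2 change was 0.096.

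Of 16 listed mitochondrial cochaperones and proteases, 15 were tested. In Tfap2c knockdown 2 were higher and 2 lower, in Tead4 knockdown 1 was lower, and in double knockdown 1 was higher and 1 lower. That is 26.7%, 6.67% and 13.3% called, beside 29.6%, 6.13% and 25.1% of all tested genes. The protease gene Htra2 had 19, 14.2, 11.2 and 16.3 FPKM in Tfap2c knockdown and 4.51, 4.73, 2.74 and 2.01 in Tead4 knockdown. Htra2 had 10.0, 6.66, 3.62 and 7.71 FPKM in double knockdown, against 16.6, 15.5, 9.66 and 14.4 in GFP control. It was lowest in Tead4 knockdown, with a log2 change of -1.77 ± 0.21 (SE; adjusted p = 0.000144), and had -0.95 ± 0.21 (SE; adjusted p = 0.00351) in double knockdown. Pmpcb, which trims imported precursors, had 0.58 ± 0.067 (SE; adjusted p = 2.24e-05) in Tfap2c knockdown and 0.40 ± 0.067 (SE; adjusted p = 0.00061) in double knockdown.

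Of 9 small HSP genes 3 were tested. Hspb1 (HSP25), a holdase that binds unfolding proteins, had 48.7, 57.8, 35.4 and 22.9 FPKM in Tfap2c knockdown and 17.9, 14, 12.1 and 14.3 in Tead4 knockdown. Hspb1 had 44.6, 48, 6.23 and 20.6 FPKM in double knockdown, against 27.1, 28.6, 32.1 and 24.8 in GFP control. Tead4 knockdown libraries lay below every control, and double knockdown spread from the lowest value of all to above the controls. No comparison with the control was called, at 0.46 ± 0.37 (SE; adjusted p = 0.381), -0.91 ± 0.37 (SE; adjusted p = 0.163) and -0.26 ± 0.37 (SE; adjusted p = 0.658) in Tfap2c, Tead4 and double knockdown. The processed pseudogene Hsp25-ps1 shares its sequence, so the division of reads is uncertain. Hspb11, a small protein of intraflagellar transport rather than a typical small HSP, had 37.9, 32.9, 35.7 and 31.3 FPKM in Tfap2c knockdown and 38.8, 37.6, 33 and 30.2 in double knockdown, against 28, 17.9, 22.4 and 29.6 in GFP control. The groups did not overlap, and the log2 change was 0.50 ± 0.14 (SE; adjusted p = 0.0154) in Tfap2c knockdown and 0.51 ± 0.14 (SE; adjusted p = 0.0147) in double knockdown, with both calls lost when the other groups were left out of the fit.

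Adding Tead4 dsRNA to Tfap2c dsRNA gave no detected change in these genes. In double knockdown against Tfap2c knockdown, 0 of the 60 chaperone genes were called by limma, beside 0.14% of all tested genes. At an unadjusted p under 0.05, 2 of the 60 passed, beside 1087 of all 11422 tested genes. For Hsp90aa1 the 95% interval of the log2 difference was -0.41 to 0.25, for Dnaja1 -0.10 to 0.27 and for Dnajb14 -0.62 to 0.46.

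Adding Tfap2c dsRNA to Tead4 dsRNA changed 16 of the 60 genes. In double knockdown against Tead4 knockdown, 3 were higher and 13 lower, 26.7% in all, beside 23.7% of all tested genes (10.9% higher and 12.9% lower), and 5 were higher and 10 lower with quantile normalization. The largest changes among genes at 5 FPKM or more were in Dnajc12, with 1.25 ± 0.19 (SE; adjusted p = 0.000271), Dnajb14, with 1.22 ± 0.25 (SE; adjusted p = 0.0027), Dnajc2, with -0.93 ± 0.17 (SE; adjusted p = 0.00108), Dnajc10, with -0.87 ± 0.22 (SE; adjusted p = 0.00939), Hsp90aa1, with -0.61 ± 0.16 (SE; adjusted p = 0.0101), and Dnajc24, with -0.55 ± 0.12 (SE; adjusted p = 0.00355). In Dnajc12 and Dnajc24 the 2 groups did not overlap. The Dnajc10 call was lost without cross in the fit (adjusted p = 0.0587), and the Dnajc24 call without cross in the fit (adjusted p = 0.0591). Dnajc22, also called lower, reached 1 FPKM in 3 Tead4 knockdown libraries and 1 control, so it was tested only because of the groups in which it was high. Dnajc10 had 5.29, 3.22, 4.14 and 5.32 FPKM in double knockdown against 5.10, 7.38, 12.8 and 12.5 in Tead4 knockdown, whose cross B libraries were the highest of all 16. Hsp90ab1 and Dnaja1 were lower too, with -0.23 ± 0.049 (SE; adjusted p = 0.0034) and -0.51 ± 0.087 (SE; adjusted p = 0.000639). Dnajc8, found with the spliceosome, had -0.27 ± 0.084 (SE; adjusted p = 0.0283), a call lost without any 1 of 4 libraries, Tead4 knockdown B1 or B2 or double knockdown B1 or B2 (adjusted p 0.0645 to 0.0961), and with quantile normalization, without cross in the fit or with only the compared groups in the fit (adjusted p 0.0525 to 0.0917). Hspa4 had -0.35 ± 0.11 (SE; adjusted p = 0.0378), a call lost without any 1 of 6 libraries, Tead4 knockdown A1, B1 or B2 or double knockdown A2, B1 or B2 (adjusted p 0.0595 to 0.115), and with no filter on low values, with quantile normalization, without cross in the fit or with only the compared groups in the fit (adjusted p 0.0525 to 0.202). Hspa14 had -0.31 ± 0.11 (SE; adjusted p = 0.049), a call lost without any 1 of 11 libraries, Tfap2c knockdown A2 or B2, Tead4 knockdown A2, B1 or B2, double knockdown A1, A2, B1 or B2 or GFP control A2 or B1 (adjusted p 0.052 to 0.158), and with a pseudocount of 0.1, with no filter on low values, with quantile normalization, without cross in the fit, with the replicate block or with only the compared groups in the fit (adjusted p 0.0503 to 0.0955). Dnajb9 had 0.27 ± 0.084 (SE; adjusted p = 0.0323), a call lost without any 1 of 4 libraries, Tead4 knockdown A1, B1 or B2 or double knockdown B2 (adjusted p 0.0661 to 0.105), and with no filter on low values or without cross in the fit (adjusted p 0.0676 to 0.0769). Dnajc3 had -0.37 ± 0.11 (SE; adjusted p = 0.0211), a call lost without any 1 of 4 libraries, Tead4 knockdown A2 or B1 or double knockdown B1 or B2 (adjusted p 0.0516 to 0.0724), and without cross in the fit or with only the compared groups in the fit (adjusted p 0.0615 to 0.236). In the other lists, Hsf2 fell with -1.06 ± 0.20 (SE; adjusted p = 0.00144), and Fkbp11 rose with 1.33 ± 0.16 (SE; adjusted p = 3.56e-05), a call lost without cross in the fit (adjusted p = 0.0791).

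Tfap2c knockdown against GFP control and double knockdown against Tead4 knockdown both ask what Tfap2c dsRNA changes. The groups of these comparisons share no library. Both comparisons came from the same fit to all libraries, though, and so share each gene's variance estimate and cross term. Calls in the first and second comparison are therefore not independent. Of the 26 chaperone genes called in the first, 22 (84.6%) had the same sign in the second and 10 (38.5%) were called in the same direction, beside 91.9% and 52.9% of all genes called in the first. Of the 16 called in the second, 14 (87.5%) had the same sign in the first and 62.5% were called in it in the same direction, beside 93.5% and 65.9% of all genes called in the second. The 10 were Hsp90aa1, Hsp90ab1, Dnaja1, Dnajc2, Dnajc10, Dnajc24 and Dnajb12, which fell, and Dnajb9, Dnajb14 and Dnajc12, which rose.

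**Figure D5:**
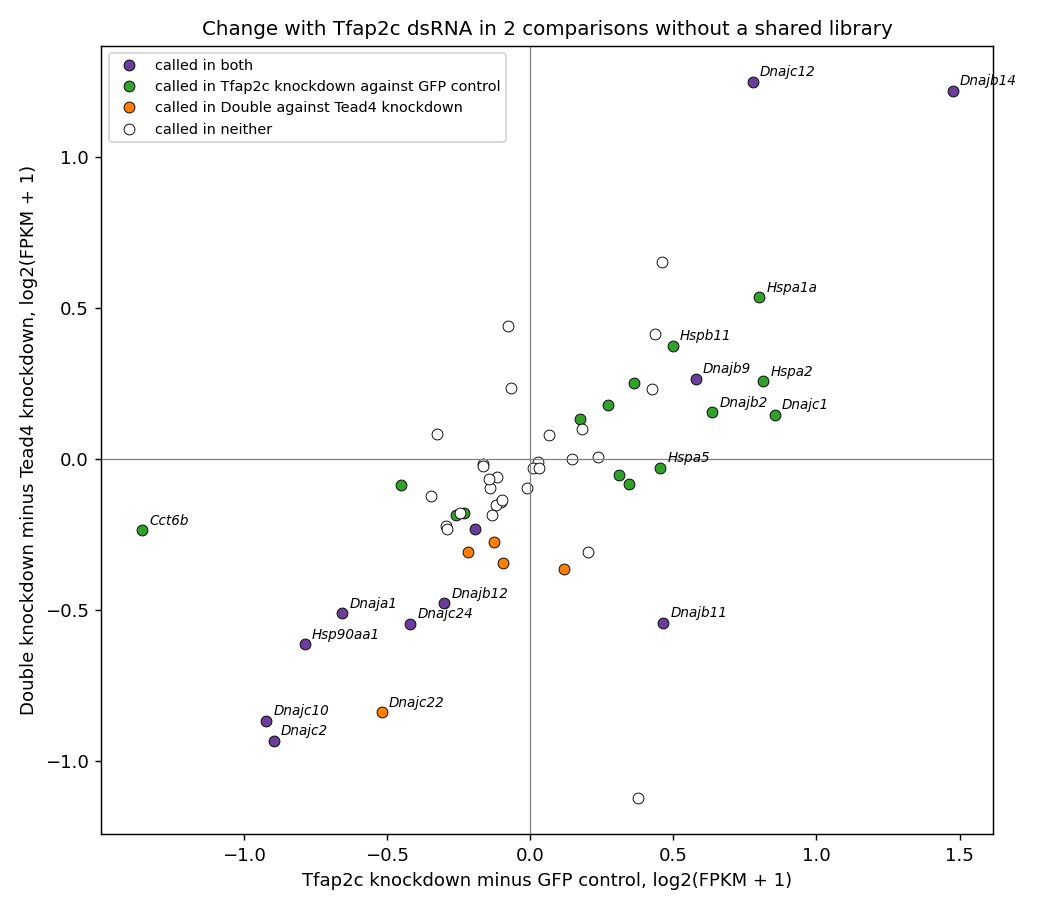
Change with Tfap2c dsRNA in the 60 tested chaperone genes, Tfap2c knockdown minus GFP control (horizontal) against double knockdown minus Tead4 knockdown (vertical), both as differences of log2(FPKM + 1), 1 point per gene. The 10 genes called in the same direction in both lie at the lower left and upper right, and Dnajb11 (0.47 and -0.54) is called in opposite directions.

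Dnajb11 (ERdj3), a soluble J protein of BiP, differed between these comparisons. It had 78.1, 72.7, 74.7 and 80.7 FPKM in Tfap2c knockdown and 85.6, 78.8, 76.2 and 76.7 in Tead4 knockdown. Dnajb11 had 45.1, 61.4, 44.2 and 69.8 FPKM in double knockdown, against 72.3, 56, 53.9 and 42.2 in GFP control. Both single knockdowns stood above all controls, and double knockdown lay among the controls. On the log2 scale, the change was 0.47 ± 0.15 (SE; adjusted p = 0.0318) in Tfap2c knockdown against GFP control and -0.54 ± 0.15 (SE; adjusted p = 0.0173) in double knockdown against Tead4 knockdown. The difference between these effects, the non-additive part, was -1.01 ± 0.22 (SE; adjusted p = 0.0447), the 1 call among the 60 genes, beside 0.753% of all tested genes. This call was lost without any 1 of 13 libraries, Tfap2c knockdown A1, A2, B1 or B2, Tead4 knockdown A1, A2, B1 or B2, double knockdown A1 or B1 or GFP control A2, B1 or B2 (adjusted p 0.0673 to 0.0971). It was also lost with no filter on low values, with median-ratio rescaling, with quantile normalization, without cross in the fit or with the replicate block (adjusted p 0.0636 to 0.126), and in either cross alone. The call in Tfap2c knockdown was lost without any 1 of 6 libraries, Tfap2c knockdown A1, B1 or B2 or GFP control A2, B1 or B2 (adjusted p 0.0532 to 0.113), and with no filter on low values or with median-ratio rescaling (adjusted p 0.0745 to 0.0755). The call in double against Tead4 knockdown was lost without any 1 of 2 libraries, double knockdown A1 or B1 (adjusted p 0.0615 to 0.0644).

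The 2 crosses differed in 22 of the 60 genes with group in the fit. In cross B against cross A, 14 were higher and 8 lower, 36.7% in all, beside 33.5% of all tested genes (17.2% higher and 16.3% lower). Dnajb3, among the 14, reached 1 FPKM in 4 libraries, all of cross B. It was tested only because of the cross in which it was high, and its call is not read. Cct6b averaged 9.39 ± 4.29 FPKM in cross B and 4.33 ± 2.50 in cross A (SD, n = 8 each), with a log2 difference of 1.01 ± 0.14 (SE; adjusted p = 8.86e-05). Hsph1 averaged 26.1 ± 5.26 FPKM in cross B and 14.6 ± 2.24 in cross A, without overlap, and differed by 0.79 ± 0.091 (SE; adjusted p = 2.64e-05). Dnajc10 differed by 0.53 ± 0.15 (SE; adjusted p = 0.0152) and Dnajc2 by 0.46 ± 0.12 (SE; adjusted p = 0.00917), both higher in cross B. Hspb1 differed by -0.76 ± 0.26 (SE; adjusted p = 0.0353) and Dnajc5, the cysteine string protein of secretory vesicles, by -0.50 ± 0.10 (SE; adjusted p = 0.00217), both lower in cross B. The Hspb1 call was lost without any 1 of 4 libraries, Tfap2c knockdown A2 or B2 or double knockdown A1 or A2 (adjusted p 0.0637 to 0.0759), and with no filter on low values or without group in the fit (adjusted p 0.0947 to 0.136). The Dnajc10 call was lost without group in the fit (adjusted p = 0.224), and the Dnajc2 call without group in the fit (adjusted p = 0.22). Hspa8 differed by 0.30 ± 0.074 (SE; adjusted p = 0.00585), and Dnajb1 by 0.31 ± 0.069 (SE; adjusted p = 0.00316), both higher in cross B.

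The effect of a knockdown was not shown to depend on the cross. In the test of that interaction by limma, 0 of the 60 genes were called in the Tfap2c, Tead4 or double knockdown comparison, beside 0.0% of all tested genes in each, and 11, 4 and 14 passed an unadjusted p under 0.05. The number of all tested genes passing that unadjusted level was not counted, so nothing is read from the 11, 4 and 14. The lowest adjusted p of a chaperone gene was 0.115 in Tfap2c knockdown, 0.495 in Tead4 knockdown and 0.227 in double knockdown. Without double knockdown B2, 1 gene was called. Each cross had 2 libraries in each group.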

How the data were processed

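Polyadenylated RNA from 16 pools of 10 mouse 8-cell embryos was amplified by a Smart-seq2 procedure, per the labels' protocols. CASAVA, Trim Galore, STAR, Cufflinks and the mm10 build are named in the submitters' processing notes; the annotation, tool versions and parameters are unstated there. FPKM per gene was deposited by the authors, so the absolute depth is unknown and no counting interval can be given. The 43496 lines held 59 repeats of an identifier, whose values were summed, and 0 columns lay outside the series. Genes that 4 or more libraries held at 1 FPKM or higher were tested on log2(FPKM + 1), computed here from the deposited values, with limma 3.58.1 in R 4.3.3. The fit held group and cross terms and a variance trend, and was tested on simulated data. The p-values were adjusted over all 11422 genes.

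Members and lists were chosen with earlier results of these data known. Each comparison with control names up to 15 called genes, and each other comparison up to 6, with the largest change and a group mean of at least 5 FPKM. A fixed set of central chaperones and up to 3 genes per other list, by lowest p, were added. Dnaja2, Dnajb2, Dnajb6, Dnajb12, Dnajc7, Dnajc8, Dnajc15, Dnajc27, Hspa14 and the grouping by place of work were chosen after values were seen. Alternatives were a pseudocount of 0.1, no filter or 5 FPKM, 2 rescalings, fits without cross, with a replicate block, on the compared groups or on 1 cross, and leaving out each library. Gene locations were found for 87 of the 88 members. Promoter windows are RefSeq, GRCm38.p6.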

Additional observations from a re-analysis of the deposited data

Results flagged for a closer look

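In groups of 4 libraries, 148 in all over 37 genes, a single library far from the other 3 was looked for, which chance alone finds in about 1 in 20 groups. It was found in 2. Dnajc5 had 7.74 FPKM in GFP control B2, while the other controls had 10.3 to 10.6. Hspa1a had 0.320 FPKM in GFP control B2, while the others had 0.162 to 0.182, and it remained below every Tfap2c and double knockdown library. Dnajb11 was listed for a difference between groups, since its change with Tfap2c dsRNA was lower by 1.01 on the log2 scale with Tead4 dsRNA than without it (non-additive part -1.01, adjusted p = 0.0447). This call was lost without any 1 of 13 libraries, Tfap2c knockdown A1, A2, B1 or B2, Tead4 knockdown A1, A2, B1 or B2, double knockdown A1 or B1 or GFP control A2, B1 or B2 (adjusted p 0.0673 to 0.0971). It was also lost with no filter on low values, with median-ratio rescaling, with quantile normalization, without cross in the fit or with the replicate block (adjusted p 0.0636 to 0.126), and in either cross alone.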

How the results depend on the processing

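The counts of called chaperone genes moved as follows, and the cause was not tested. Without the cross term they were 16 in Tfap2c knockdown (26 with it), 2 in Tead4 knockdown (6), 11 in double knockdown (19), 9 in double against Tead4 knockdown (16) and 0 in the non-additive part (1), and without the group term 13 between crosses (22). With only the compared groups in the fit, Tfap2c knockdown had 17. In cross A alone, counts were 10 in Tfap2c knockdown and 8 in double against Tead4 knockdown; in cross B alone, 12, 0, 7 and 10 in Tfap2c, Tead4, double and double against Tead4 knockdown. The non-additive call was 0 with no filter, median-ratio rescaling, quantile normalization, the replicate block or either cross alone. Leaving out each library in turn gave 15 to 26 in Tfap2c knockdown, lowest without Tfap2c knockdown B2 and 17 without GFP control A2. It gave 2 to 8 in Tead4 knockdown, with 2 without Tead4 knockdown B1, GFP control A1 or A2 and 3 without GFP control B2. It gave 12 to 19 in double knockdown, lowest without GFP control A1, 11 to 17 in double against Tead4 knockdown, 0 to 1 in the non-additive part, 18 to 23 between crosses, and 0 to 1 in the interaction, with 1 without double knockdown B2. Double against Tfap2c knockdown stayed at 0 under every alternative. For the 274 single-gene results, 6990 alternatives gave 0 changes of direction among called values, 335 lost calls and 37 added ones. Libraries with the same number share only that number: their deviations correlated between -0.165 and 0.176, and with the replicate block the counts were 22, 6, 16 and 15 in Tfap2c, Tead4, double and double against Tead4 knockdown. FPKM without counts leaves the depth behind low genes such as Hspa1a unknown.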
